A study of Mus musculus with 6 samples.

Results

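The guanylate-binding proteins (GBPs) and immunity-related GTPases (IRGs) are large GTPases that mouse cells make after exposure to interferons. Transcripts of 10 of them, Gbp2, Gbp3, Gbp4, Gbp5, Gbp6, Gbp7, Igtp, Irgm1, Irgm2 and Iigp1, were read from a table of 26452 genes by their gene symbols. Each symbol was found in the table. The samples were spleens of 3 Was knockout mice (Was -/-, 129S6/SvEvTac-Wastm1Sbs/J), here named KO451, KO452 and KO457. They were compared with spleens of 3 mice, WT453, WT454 and WT455, that carry the normal gene in the 129S6/SvEvTac strain. All were males aged 10 weeks, and no treatment or infection is stated. Each library has its own animal number, and the labels do not say whether the knockout and wild-type mice were littermates. Was encodes the Wiskott-Aldrich syndrome protein, which drives actin assembly in blood cells. Its targeted allele is carried in the germline, so every cell type of the spleen bears it. The labels give the material as whole spleen cells, so fewer cells of a type and less RNA per cell cannot be told apart.

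Of the 10 genes, 4 lie on chromosome 3, 2 on chromosome 5, 3 on chromosome 11 and 1, Iigp1, on chromosome 18. In the GENCODE annotation of GRCm38 all 10 are protein coding. The chromosome 3 genes follow each other on the plus strand, with Gbp5 at chr3:142493978-142522344, Gbp7 at chr3:142530342-142550149, Gbp3 at chr3:142560026-142573209 and Gbp2 at chr3:142620602-142638008. Gbp4 at chr5:105115767-105139586 and Gbp6 at chr5:105270702-105293698 are on the minus strand. Igtp at chr11:58199556-58207591 and Irgm2 at chr11:58199618-58222782 are on the plus strand and overlap, and Irgm1 at chr11:48861968-48871683 is on the minus strand. Some exons are shared between genes, and how the authors split such reads is not given in the sources used here. Gbp6 shares 1726 exon bases with Gm43302, Gbp7 shares 637 with the pseudogene Gm43802, Igtp and Irgm2 share 162, and Gbp4 shares 61 with Gbp8 and 60 with Gbp9. The values of these 5 genes are therefore uncertain as to which copy the reads came from. GBPs of a cluster are also alike in sequence, so reads of one may have been assigned to another.

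Interferon gamma, released mainly by T cells and natural killer cells, binds a receptor that activates the kinases JAK1 and JAK2. Its target genes are read through a promoter element called GAS, and the factor IRF1, itself induced by interferon gamma, binds another element called ISRE, which also serves type I interferons. GBPs and IRGs gather on the vacuoles in which Toxoplasma, Chlamydia and other intracellular pathogens live, and disrupt them. In mice, IRGs fall into regulators that sit on the cell's own membranes and hold the others inactive (Irgm1, Irgm2 and Igtp, also called Irgm3), and effectors that load onto the pathogen vacuole, such as Iigp1 (also called Irga6).

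Promoter windows from RefSeq (GRCm38.p6; 250 bases before to 50 bases after each start site) were found for 7 of the 10 genes, in 8 windows, since Gbp3 has 2 start sites. A match to an ISRE-like motif, GAAANNGAAA on either strand, was present in a window of all 7 genes, namely Gbp2, Gbp3, Gbp5, Gbp7, Igtp, Irgm1 and Irgm2, and in 3.44% of all 32851 windows. A match to a GAS-like motif, TTCNNNGAA, which reads the same on both strands, was present in 4 of the 7 (Gbp5, Gbp7, Igtp and Irgm2) and in 8.30% of all windows. The second window of Gbp3 held neither motif. Both motifs are given as matches of letters and are no evidence of binding. The following promoter stretches, read 5′ to 3′ on the gene's strand with every motif match in capitals, are shown because they carry the arrangements that differ among the genes.
Igtp: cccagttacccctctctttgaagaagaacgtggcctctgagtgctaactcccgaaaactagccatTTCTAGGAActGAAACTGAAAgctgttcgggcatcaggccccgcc
Irgm2: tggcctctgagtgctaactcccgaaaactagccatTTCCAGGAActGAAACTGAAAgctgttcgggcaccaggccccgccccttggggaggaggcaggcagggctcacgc
Irgm1: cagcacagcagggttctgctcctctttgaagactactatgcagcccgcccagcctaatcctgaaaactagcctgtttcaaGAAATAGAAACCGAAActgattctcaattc
Gbp3: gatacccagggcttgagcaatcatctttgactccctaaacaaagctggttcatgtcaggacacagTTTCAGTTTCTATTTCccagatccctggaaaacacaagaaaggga
Gbp7: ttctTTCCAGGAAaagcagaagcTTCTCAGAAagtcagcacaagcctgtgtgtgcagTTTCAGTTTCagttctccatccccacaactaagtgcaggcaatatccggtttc
The Igtp stretch is chr11:58199446-58199555 (plus strand), Irgm2 is chr11:58214867-58214976 (plus), Irgm1 is chr11:48871421-48871530 (minus), Gbp3 is chr3:142559934-142560043 (plus) and Gbp7 is chr3:142530226-142530335 (plus). In Igtp and Irgm2 a GAS-like match was followed by an ISRE-like match that began 11 bases after the first base of the other. This joined arrangement, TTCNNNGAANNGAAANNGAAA, was found in 5 of the 32851 windows, a share of 0.0152%. The 5 were all of IRG genes: Igtp, Irgm2, Tgtp1, Tgtp2 and Gm12185. Irgm1, the other regulatory IRG, had a pair of overlapping ISRE-like matches 30 to 15 bases before the start site and no GAS-like match. Gbp3 had a like pair 45 to 30 bases before its start on the opposite strand, while Gbp7 had 2 GAS-like matches at 106 to 98 and 87 to 79 bases and an ISRE-like match at 53 to 44 bases. The remaining ISRE-like matches were 59 to 50 bases before the start in Gbp2 and 165 to 156 bases in Gbp5. All distances are from RefSeq start sites, which differ from the GENCODE gene starts for some genes. For example, the Irgm1 and Irgm2 stretches and the Gbp5 window lie within the GENCODE gene spans given above, as does the end of the Gbp3 stretch.

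**Figure D1:**
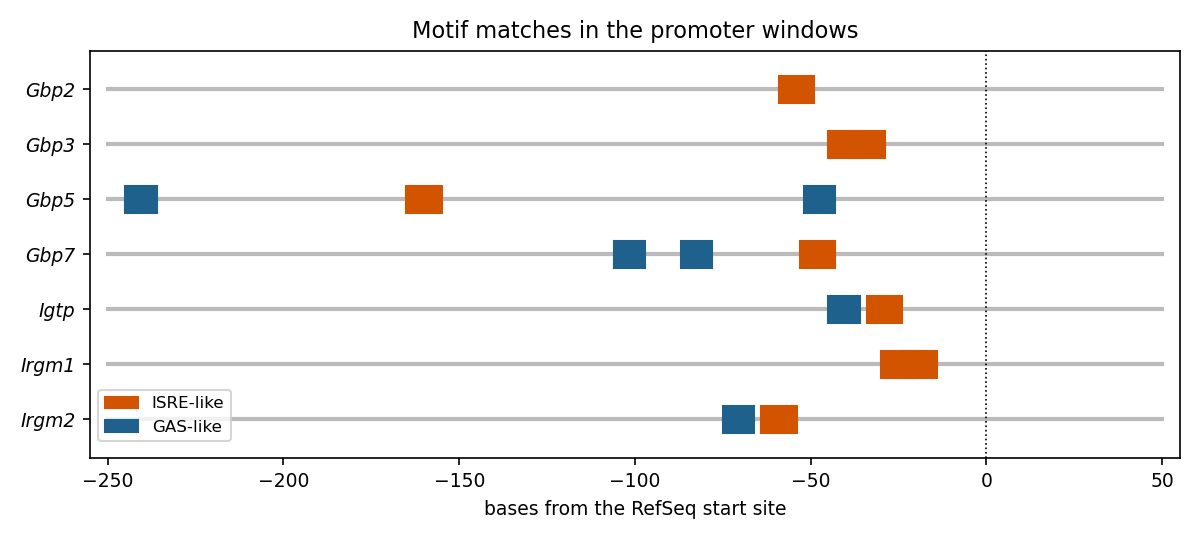
Positions of ISRE-like (orange) and GAS-like (blue) motif matches in RefSeq promoter windows of 7 GBP and IRG genes, 1 window a gene, on an axis of bases from the start site (dotted line). Each of the 7 genes has an ISRE-like match and 4 have a GAS-like match, and the second window of Gbp3, with no match, is not drawn.

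The libraries held 30661759 (WT455) to 38402758 (WT454) reads assigned to genes, recovered from the deposited log2 values, and levels are given as CPM, the reads of a gene per 1000000 of those reads. A count of 0 allows up to 3 reads, or 0.0781 to 0.0978 CPM by library, for counting error only. Was itself had 13.7, 12.2 and 11.3 CPM in KO451, KO452 and KO457, against 125, 209 and 197 CPM in WT453, WT454 and WT455, a log2 fold change (KO over WT) of -3.66 ± 0.25 (SE; Benjamini-Hochberg adjusted p = 0.0117 by limma, a linear model that shares its estimate of spread across genes). The adjusted p of Was stayed under 0.05 without WT453, and was up to 0.446 when any 1 of the other 5 libraries was left out. Markers of T cells, B cells, macrophages and erythroid cells, which make up the spleen, were detected in every library. Of 5 listed markers of pancreas, which lies beside the spleen, only Cela1 and Cpa1 were in the table, and Cpa1 was at 0 in some libraries. Together these markers summed to 40.04, 43.95 and 32.2 CPM in KO451, KO452 and KO457, against 14.02, 22.4 and 24.2 CPM in WT453, WT454 and WT455. The sum was higher in every KO spleen than in every WT spleen, and its part in the results was not tested.

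The library WT453 stood apart from the other wild-type spleens. Its 7 neutrophil markers summed to 57573 CPM, against 3246 and 6211 CPM in WT454 and WT455. The 7 genes of an immediate-early and heat shock list (Fos, Jun, Egr1, Hspa1a, Hspa1b, Dusp1 and Zfp36) summed to 1448 CPM in WT453 and 354 and 302 CPM in the other two. Results on the GBPs and IRGs are therefore given with and without WT453.

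None of the 10 GBP and IRG transcripts passed the test between KO and WT spleens, and each had KO values that overlapped the WT values. The lowest adjusted p was 0.622, for Gbp4 (limma on the authors' log2 values, Benjamini-Hochberg over 22081 genes). By the same rule 2 of the 22081 genes tested, or 0.00906%, were called. An unadjusted p under 0.05 was reached by 0 of the 10, against 11.0% of all genes. Groups that did not overlap were found for 0 of the 10, against 19.5% of all genes. The fold change was above 0 for 3 of the 10 and below 0 for 7, where 52.3% of all genes were below 0. The median of the 10 log2 fold changes was -0.11, against -0.03 over all genes tested. All 10 passed the filter on low values, with between 133 and 5286 reads in each library. In the authors' deposited table the FDR of these 10 genes lay between 0.476 and 0.999, and 4.29% of the tested genes had an FDR under 0.05 there.

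The chromosome 3 GBPs were read at 19.96 to 106 CPM. Gbp2, which coats the Toxoplasma vacuole in mouse cells, had 37.7, 97.1 and 66.7 CPM in KO451, KO452 and KO457, against 34.03, 95.1 and 106 CPM in WT453, WT454 and WT455. In each genotype 1 or more spleens were near 100 CPM and 1 was under 40, so the groups covered nearly the same range (log2 fold change -0.02 ± 0.48 SE, adjusted p = 0.997 by limma). Gbp3 had 34.2, 61.9 and 44.2 CPM in the KO spleens and 20.2, 62.3 and 62.8 CPM in the WT spleens, in the same library order. KO452, WT454 and WT455 were within 1 CPM of each other, and WT453 was the lowest of the 6 (log2 fold change 0.23 ± 0.45).

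Gbp5, which promotes assembly of the NLRP3 inflammasome in macrophages, had 19.96, 44.2 and 24.5 CPM in KO451, KO452 and KO457, and 24.4, 51.2 and 48.9 CPM in WT453, WT454 and WT455. KO452 and the higher pair of WT spleens again lay apart from the other 3 libraries (log2 fold change -0.35 ± 0.37, adjusted p = 0.739 by limma). Gbp7, which has been linked to assembly of the phagocyte NADPH oxidase, varied least of the chromosome 3 genes, with 53.3, 59.8 and 49.5 CPM in the KO spleens, against 33.7, 71.4 and 64.02 CPM in the WT spleens. The 3 KO values lay between WT453 and the other two WT spleens (log2 fold change 0.16 ± 0.29).

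The chromosome 5 genes Gbp4 and Gbp6 held the widest intervals among the 6 GBPs of the 10 genes. Gbp4 had 14.2, 36.3 and 14.7 CPM in KO451, KO452 and KO457, against 17.03, 58.8 and 48.6 CPM in WT453, WT454 and WT455. The group means were 21.7 ± 12.6 CPM in KO spleens and 41.5 ± 21.8 CPM in WT spleens (SD, n = 3 each), and WT453 lay within the KO range. Its log2 fold change of -0.75 ± 0.52 had a 95% confidence interval of -1.98 to 0.48 and an adjusted p of 0.622 by limma (unadjusted p = 0.195). It was the largest change in size among the 10 genes. Gbp6 had 7.26, 22.4 and 6.63 CPM in the KO spleens and 4.13, 20.8 and 19.5 CPM in the WT spleens. KO451, KO457 and WT453 were all under 8 CPM and the other 3 libraries near 20, with no difference by genotype past the test (log2 fold change -0.07 ± 0.70, interval -1.71 to 1.58).

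Among the regulatory IRGs, Irgm1, which mice need to resist mycobacteria, had 63.5, 129 and 79.1 CPM in KO451, KO452 and KO457, against 40.2, 138 and 122 CPM in WT453, WT454 and WT455. WT453 was the lowest library and KO452 lay between WT454 and WT455 (log2 fold change 0.13 ± 0.47). Igtp had 49.5, 91.6 and 65.2 CPM in the KO spleens and 52.1, 115 and 109.7 CPM in the WT spleens (log2 fold change -0.24 ± 0.34). All 3 KO spleens were below WT454 and WT455, and in CPM KO451 alone was below WT453. Irgm2 had 37.7, 69.4 and 45.1 CPM in the KO spleens and 51.9, 77.9 and 71.2 CPM in the WT spleens (log2 fold change -0.28 ± 0.26). It spanned the smallest range of the IRGs, with 2.07-fold between the highest and the lowest library.

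Iigp1, the effector IRG, had 5.55, 34.7 and 17.8 CPM in KO451, KO452 and KO457, against 11.9, 19.9 and 27.00 CPM in WT453, WT454 and WT455. The lowest and the highest of the 6 libraries were both knockouts, 6.25-fold apart, and the 3 WT spleens lay between them (log2 fold change -0.15 ± 0.63, interval -1.62 to 1.32). Each of the 10 genes had a 95% interval that included no change. The lowest bound of any gene was a KO level of 0.254 times the WT level (Gbp4) and the highest was 2.99 times (Gbp6), while Irgm2 had a narrower interval of 0.539 to 1.25 times and Gbp7 one of 0.696 to 1.79 times. The two-sided exact permutation test over 3 against 3 spleens cannot give a p below 0.1, and its p for single genes ran from 0.2 to 1.

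**Figure D2:**
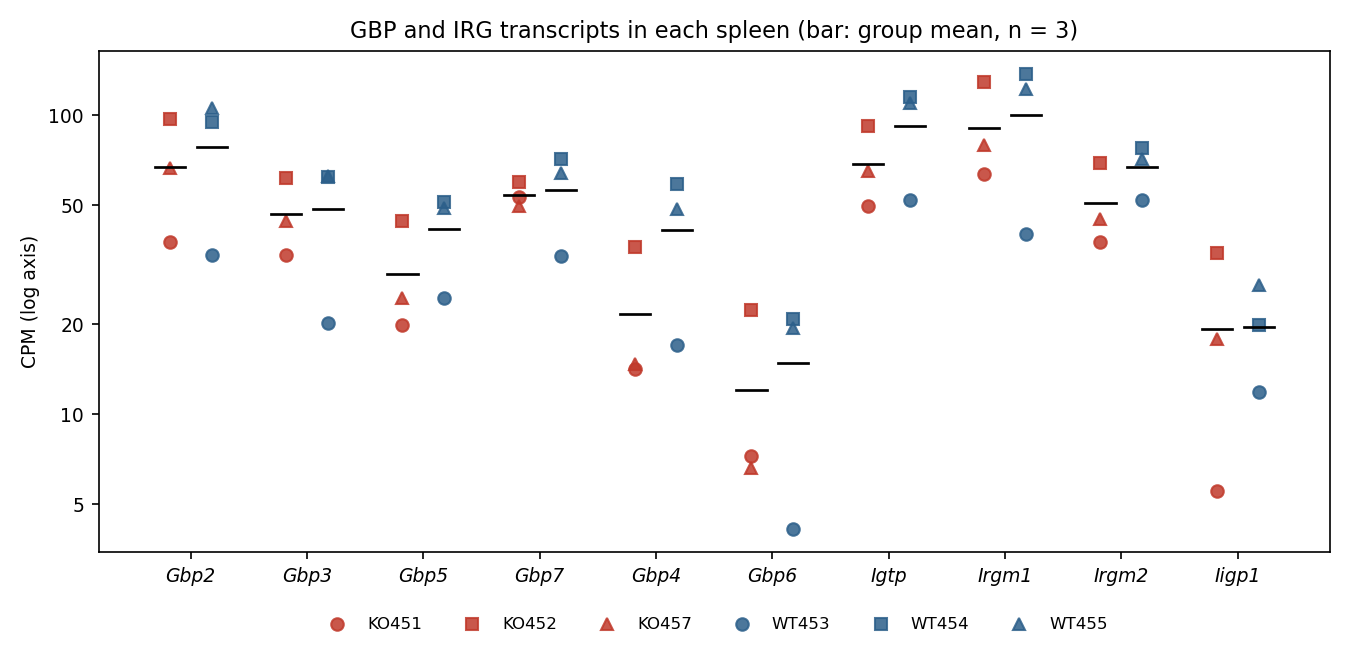
CPM (log axis) of each GBP and IRG gene in every spleen, with KO points (red) left of WT points (blue) and bars at the group means (n = 3 each). KO and WT points overlap for all 10 genes, and the 3 highest libraries in CPM are KO452, WT454 and WT455.

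Leaving out WT453 moved every fold change of the 10 genes down. That shift was fixed in advance, since WT453 was the lowest WT spleen for 10 of 10 genes, against 43.9% of all genes. The shares over all genes are therefore not a like background here, and no excess is read from them. Without WT453 all 10 genes were lower in KO than in WT spleens, as were 51.3% of all genes. The median log2 fold change of the 10 was -0.48 (all genes -0.02). None of the 10 passed the adjusted threshold, where 0.00923% of all genes did, and 2 of the 10, Gbp4 and Igtp, had an unadjusted p under 0.05 in this direction, against 9.53% of all genes. All 3 KO values lay below both remaining WT values for 4 of the 10, Gbp4, Gbp5, Gbp7 and Igtp, against 21.6% of all genes. Gbp4 gave -1.27 (limma adjusted p = 0.194), Gbp6 -0.80 (adjusted p = 0.419), Gbp5 -0.67 (adjusted p = 0.292) and Igtp -0.58 (adjusted p = 0.249). Gbp3, Gbp7 and Irgm1, which were above 0 with all 6 libraries, gave -0.29, -0.15 and -0.41. The direction of these 3 genes thus turned without WT453. With KO452 left out instead, 2 of the 10 were above 0, and with KO451 or WT455 left out 6 were. The median of the 10 was 0.14 without KO451, 0.07 without WT454 and 0.19 without WT455.

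**Figure D3:**
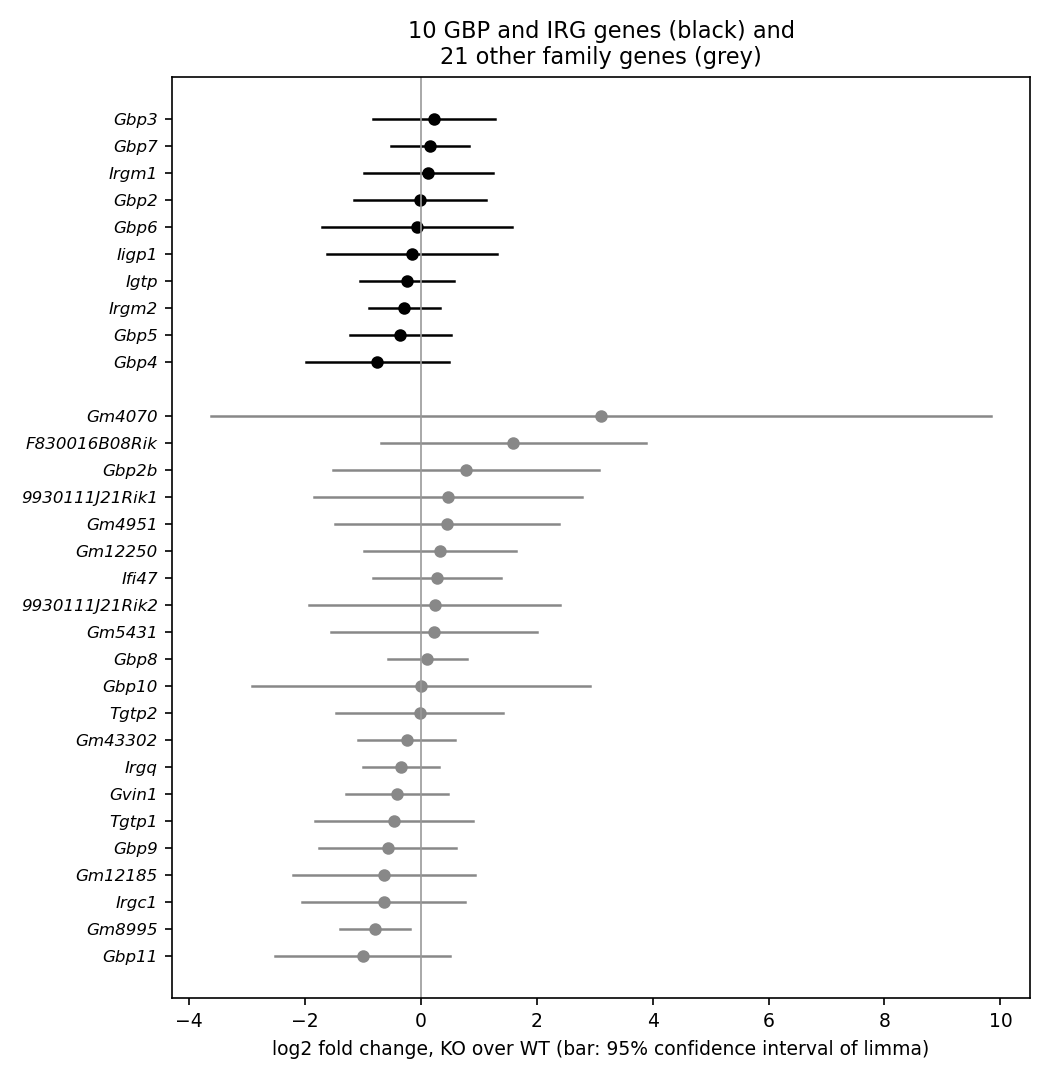
Log2 fold change, KO over WT, of the 10 GBP and IRG genes (black) and of 21 other genes of these families (grey), with 95% confidence intervals from limma on 6 libraries. All 10 intervals of the upper block include 0, and the widest interval in the lower block is that of Gm4070.

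The 10 transcripts varied together between spleens, across both genotypes. On the authors' normalized scale KO452 was the highest KO spleen for 10 of 10 genes, as it was for 33.6% of all genes tested. WT453 was the lowest WT spleen for 10 of 10, as it was for 43.9% of all genes. The 3 highest of the 6 libraries were KO452, WT454 and WT455 for 9 of 10 genes, with Iigp1 as the exception (in CPM it too had these 3 highest), and for 11.0% of all genes. WT453 was the lowest of the 6 libraries for 6 of the 10 genes (25.8% of all genes) and KO451 for 4 (24.8%). The highest was WT454 for 6 genes, WT455 for 1 and KO452 for 3. Together the 10 genes took 0.0323%, 0.0646% and 0.0413% of reads in KO451, KO452 and KO457, against 0.0290%, 0.0710% and 0.0680% in WT453, WT454 and WT455. The KO and WT shares covered nearly the same range.

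Cell type markers differed between the same libraries. Each gene's log2 value was set against its own mean over the 6 libraries, and these deviations were averaged over a list. For the 10 GBP and IRG genes the mean deviation was -0.54, 0.50 and -0.17 in KO451, KO452 and KO457, and -0.78, 0.50 and 0.48 in WT453, WT454 and WT455. For 7 T cell markers it was -0.64, 0.26 and -0.32 in the KO spleens and -0.64, 0.71 and 0.63 in the WT spleens. B cell markers (7 genes) gave -0.68, 0.26 and -0.52 in the KO spleens and -0.64, 0.99 and 0.59 in the WT spleens. In both lists, as in the GTPases, KO451, KO457 and WT453 were below 0 and the other 3 libraries above. In summed level the T cell markers reached 362, 746 and 461 CPM in the KO spleens and 447, 1093 and 1009.6 CPM in the WT spleens, and the B cell markers 1318, 2802 and 1482 CPM in the KO spleens and 1459, 4755 and 3589.5 CPM in the WT spleens. Each of the 7 genes of either list was lower in KO by fold change, and 0 of 7 were called in each. No gene of the T cell, B cell, macrophage, neutrophil or erythroid list was at 0 in any library.

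The macrophage list (7 genes, among them Spic and Cd5l of red pulp macrophages) had another profile, with 1.35, 0.68 and 0.0026 in the KO spleens and -1.82, -0.28 and 0.07 in the WT spleens, and all 7 were higher in KO by fold change. They summed to 4444, 4030.1 and 2481 CPM in the KO spleens and 711, 2206 and 2708 CPM in the WT spleens, with WT453 the lowest. Neutrophil markers gave -0.04, -0.74 and 1.51 in KO and 2.19, -2.08 and -0.84 in WT spleens, with sums of 11648, 7746 and 37703 CPM in KO and 57573, 3246 and 6211 CPM in WT spleens. WT453 was the highest. Erythroid markers gave 2.67, 0.75 and 1.08 in KO and -2.64, -1.35 and -0.52 in WT spleens, with all 9 genes higher in every KO spleen than in every WT spleen. They summed to 80078, 27103 and 31855 CPM in the KO spleens and 2202, 7556 and 12181 CPM in the WT spleens. None of these 9 was called over all genes, and their median log2 fold change was 3.11. The 10 GTPase transcripts were thus lowest in the spleens where lymphocyte markers were low, in the wild-type spleen with the most neutrophil transcripts and in the knockout spleen with the most erythroid transcripts. The part of these cell markers in the GBP and IRG levels was not tested.

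**Figure D4:**
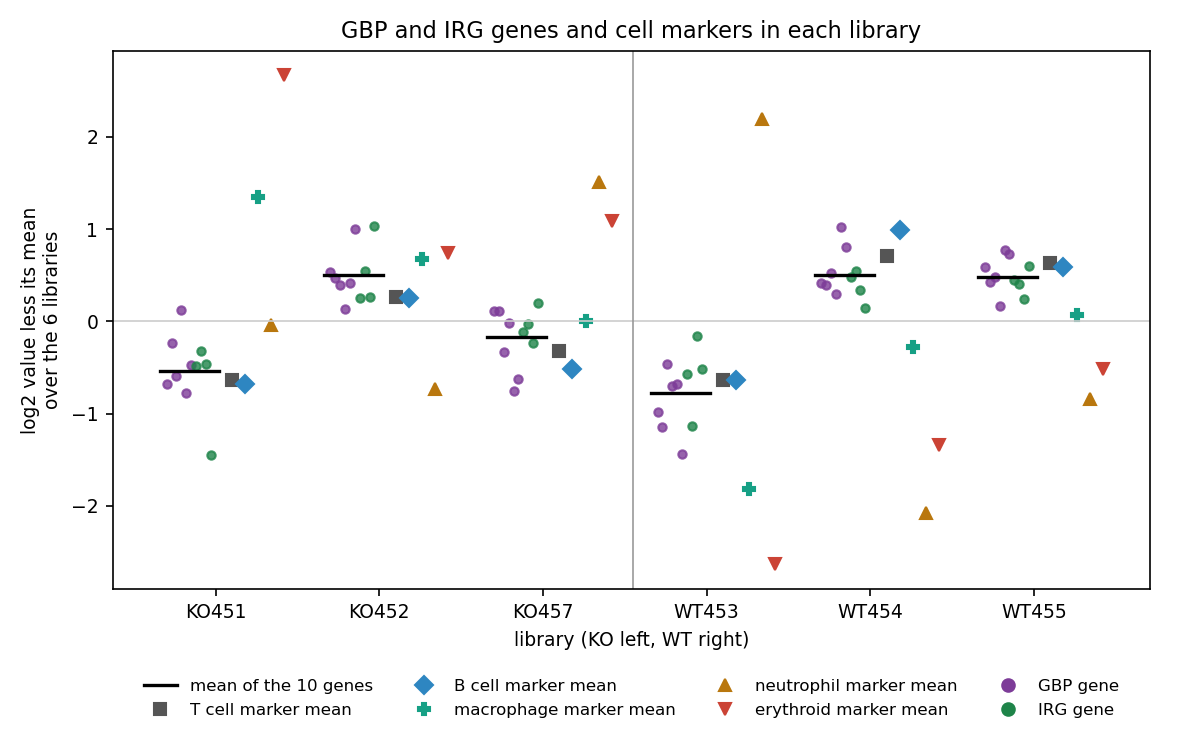
Log2 value of each GBP (purple) and IRG (green) gene less its mean over the 6 libraries, with the mean of the 10 genes (black bar) and the means of 5 marker lists, in KO libraries (left) and WT libraries (right). The bar is at 0.50 in KO452 and at -0.78 in WT453, and T and B cell markers have the sign of the bar in all 6 libraries.

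Each gene was also set against the mean log2 value of the 10 in the same library. That mean includes the gene itself, so the relative values of the 10 balance out within each library. A low gene raises the relative values of the others, and opposite directions among the 10 are in part built in. On that scale 3 of the 10 genes had groups that did not overlap, against 9.41% of all genes set against the same mean. Without this step the share of all genes was 19.5%. The 10 genes make up the mean and varied together, so its removal takes away a spread that they share. For other genes it can add spread, so the share over all genes is not a like background and no excess is read from it. Gbp4 had relative values of -0.81, -0.65 and -1.16 in KO451, KO452 and KO457, and -0.46, -0.04 and -0.28 in WT453, WT454 and WT455, a KO minus WT difference of -0.61. Every KO value of Gbp4 was below every WT value. Gbp3 went the other way, with 0.45, 0.12 and 0.43 in the KO spleens and -0.22, 0.04 and 0.09 in the WT spleens (difference 0.36). Gbp5 had -0.32, -0.37 and -0.42 in the KO spleens and 0.06, -0.24 and -0.27 in the WT spleens (difference -0.22), with the groups close at their nearest values. Each of the 3 reached a two-sided exact permutation p of 0.1, the smallest that 3 against 3 spleens can give, among 10 genes compared, so none holds after correction. Gbp4 is also one of the genes that share exon bases with neighbours.

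Per kilobase of exon, with all annotated exons of a gene merged, Igtp was the highest of the 10 at 39.8 CPM per kb (mean of 6 libraries, with 34.01 ± 10.5 in KO spleens and 45.6 ± 17.2 in WT spleens, SD, n = 3 each). The merged length was 2022 bases for Igtp and 5810 for Irgm1, and it may differ from that of the transcripts present. In CPM, without this length, Irgm1 was above Igtp in every spleen but WT453, so the order depends on the length used. Gbp2 followed at 28.9 CPM per kb and was below Igtp in 6 of 6 libraries. Irgm1 (16.4), Irgm2 (15.95) and Gbp3 (14.6 CPM per kb) were close together. Irgm2 was below Irgm1 in 5 of 6 libraries and Gbp3 below Irgm2 in 3 of 6, so these 3 had no fixed order. Gbp7 at 9.85 and Gbp5 at 5.35 CPM per kb came next, each below the gene before it in 6 of 6 libraries. Gbp4 (4.22), Iigp1 (3.34) and Gbp6 (2.26 CPM per kb) were the lowest and changed places, with Iigp1 below Gbp4 and Gbp6 below Iigp1 in 4 of 6 libraries each. The lowest member, Gbp6, averaged 2.03 ± 1.496 in KO spleens and 2.49 ± 1.56 in WT spleens (CPM per kb, SD, n = 3 each). The effector Iigp1 was thus read at a level under that of each of the 3 regulators in every spleen.

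Of 22 further GBP and IRG family genes, 21 were in the table and tested. By fold change 11 were higher and 10 lower in KO spleens, none was called, and the median log2 fold change was 0.0041. Gm8995, listed with the very large interferon-inducible GTPases, was the single gene of the 21 whose groups did not overlap, against 19.5% of all genes. GENCODE types Gm8995 as a transcribed unprocessed pseudogene. It had 98.6, 163 and 116 CPM in KO451, KO452 and KO457, against 171, 301 and 252 CPM in WT453, WT454 and WT455. Its log2 fold change was -0.79 ± 0.26 (SE; limma, unadjusted p = 0.0182, adjusted p = 0.373). Gvin1, the named gene of that very large class, had 76.00, 163 and 91.1 CPM in the KO spleens and 91.5, 198 and 199 CPM in the WT spleens (log2 fold change -0.41 ± 0.37). Gm4070 was near 0 in a single library, with 71.9, 160.5 and 89.3 CPM in the KO spleens and 0.03102, 186 and 190.1 CPM in the WT spleens. Its log2 fold change of 3.11 ± 2.86 became -0.73 without WT453, where Gm4070 was under the floor of 3 reads. The very large GTPase genes are alike in sequence, so reads of one may have been assigned to another.

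The IRG effectors Tgtp1 and Tgtp2 (also called Irgb6), whose promoters carry the joined motif, had log2 fold changes of -0.46 ± 0.58 and -0.02 ± 0.61, and Gm12185, with the same motif, had -0.63 ± 0.67. These 5 genes with the joined motif, Igtp and Irgm2 included, were all below 0 with 6 libraries, as were 52.3% of all genes, and none was called. They are not fully separate readings, since Tgtp1 and Gm12185 share 223 exon bases and Igtp and Irgm2 share 162. A link between the motif and genotype was not tested. With 1 library left out Tgtp2 ran up to 0.39. Ifi47 (Irgd) had 47.5, 119 and 74.1 CPM in the KO spleens and 49.6, 136 and 47.2 CPM in the WT spleens. Here WT455 was low, and the set of high libraries was not that of the 10 genes. Gm12250 (Irgb10), an effector that acts with GBPs on bacteria, had a log2 fold change of 0.34 ± 0.56. GENCODE types Gm12250 as a processed pseudogene. Of the chromosome 5 GBPs, Gbp9 had -0.57 ± 0.50, Gbp8 0.12 ± 0.29 and Gbp10 0.0041 ± 1.25. Gbp10 had 1.65, 7.196 and 1.71 CPM in the KO spleens and 0.341, 8.801 and 8.61 CPM in the WT spleens, with KO451, KO457 and WT453 low, as for Gbp6 on the same chromosome. Gbp10 shares 1792 exon bases with Gm43302, which also shares 1726 with Gbp6, so these profiles may rest in part on the same reads. Gbp11 was read at no more than 0.522 CPM in any library and Gbp2b, the gene of mouse Gbp1, at no more than 1.56 CPM. The other 8 family genes had log2 fold changes between -0.64 (Irgc1) and 1.595 (F830016B08Rik, at most 0.486 CPM). Without WT453, 2 of the 21 were higher and 19 lower, with a median of -0.73 and none called, where 51.3% of all genes were lower. Of the 21, 10 then had an unadjusted p under 0.05 with lower values in KO (9.53% of all genes), and 12 had all KO values below both WT values (21.6% of all genes). WT453 was the lowest of the 6 libraries for 14 of the 21, so leaving it out moved the fold changes of those 14 down by construction. The shares over all genes are therefore not a like background, and no excess is read from them. Some of the 21 also share exon bases, so they are not fully separate readings. With another library left out in turn the median of the 21 reached 0.34.

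Upstream of these genes, the interferon gamma axis was represented by 22 genes, of which 8 were higher and 14 lower in KO by fold change, none called, with a median of -0.33 (-0.48 without WT453). Ifng, the ligand, had 0.579, 1.199 and 1.11 CPM in KO451, KO452 and KO457, against 1.74, 1.54 and 1.92 CPM in WT453, WT454 and WT455. Every KO spleen was below every WT spleen, and the difference did not pass the test (log2 fold change -0.74 ± 0.43, adjusted p = 0.545 by limma). The receptor chain Ifngr1 also had groups that did not overlap, with 76.4, 90.5 and 78.6 CPM in the KO spleens and 114, 139 and 122 CPM in the WT spleens (log2 fold change -0.46 ± 0.17, unadjusted p = 0.0296, adjusted p = 0.408 by limma). The second chain, Ifngr2, had 66.8, 88.7 and 86.4 CPM in the KO spleens and 145, 102 and 102 CPM in the WT spleens (log2 fold change -0.37 ± 0.23). Groups did not overlap for 5 of the 22, against 19.5% of all genes, a share near the background. Natural killer and cytotoxic cell markers (7 genes), whose cells make Ifng, summed to 163, 281 and 188 CPM in the KO spleens and 223, 441 and 409 CPM in the WT spleens, and their part in the Ifng level was not tested.

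Irf1, whose product acts on GBP and IRG promoters, had 71.02, 174 and 111 CPM in KO451, KO452 and KO457, against 28.9, 205 and 166 CPM in WT453, WT454 and WT455 (log2 fold change 0.30 ± 0.71). WT453 was the lowest of the 6 libraries, and KO452, WT454 and WT455 were the highest, as for most of the GTPases. Irf8, which myeloid and B cells express, had 98.7, 330.0 and 211.4 CPM in the KO spleens and 153, 344 and 322 CPM in the WT spleens (-0.29 ± 0.46). The kinase gene Jak1 had a log2 fold change of 0.09 ± 0.50. Of cytokines that elicit interferon gamma, Il18 had 46.6, 75.2 and 40.2 CPM in the KO spleens and 12.6, 32.5 and 38.3 CPM in the WT spleens (1.201 ± 0.43, limma adjusted p = 0.398), and Il12b was at most 3.42 CPM (1.24 ± 0.61, adjusted p = 0.503).

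Of other interferon gamma targets, 8 of 19 were higher and 11 lower in KO by fold change, none called, with a median of -0.12 (-0.28 without WT453). The MHC class I gene B2m (0.46 ± 0.45) and the class II invariant chain Cd74 (-0.58 ± 0.42) were the most abundant. Nlrc5, the activator of MHC class I genes, had 30.2, 76.3 and 43.1 CPM in the KO spleens and 82.9, 105 and 96.3 CPM in the WT spleens (-0.88 ± 0.31, limma adjusted p = 0.394). Nos2, the inducible nitric oxide synthase, was at 5.86 CPM in WT453 and at most 0.143 CPM in the other 5 libraries.

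Among 20 targets of type I interferon, groups did not overlap for 4, against 19.5% of all genes. The list had 11 higher and 9 lower, a median of 0.07 (-0.32 without WT453) and none called, and the unadjusted p was under 0.05 for 3, all higher in KO, against 5.50% of all genes in that direction. Rsad2, which encodes the antiviral enzyme viperin, had 363, 154 and 125 CPM in KO451, KO452 and KO457, against 17.6, 52.4 and 63.8 CPM in WT453, WT454 and WT455. Its log2 fold change was 2.44 ± 0.58 (limma unadjusted p = 0.00352, adjusted p = 0.344), and in the authors' deposited table its FDR was 2.34e-04. Isg15, a ubiquitin-like modifier, had 94.9, 66.3 and 48.6 CPM in the KO spleens and 13.99, 30.7 and 28.96 CPM in the WT spleens. Its log2 fold change was 1.68 ± 0.38 (limma adjusted p = 0.344), with an FDR of 5.33e-04 in the authors' deposited table. KO451 was the highest library for both, whereas KO451 was the lowest KO spleen for most of the 10 GTPases. Rsad2 and Isg15 were named for having the largest changes of the list at 1 CPM or more, and log2 fold changes in the list ran from -1.53 to 2.44. The difference between these genes and the GTPases was not tested. Ifi27l2a, the other most abundant gene of the list, had 0.20 ± 0.43.

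The type I interferon axis itself had 11 tested genes of 15 names listed, with 6 higher, 5 lower and a median of 0.02 (-0.29 without WT453), none called. The ligand genes Ifnb1 and Ifna4 were not found in the table under these symbols, and neither were the listed names Sting1 and Cgas. The receptor chains had -0.40 ± 0.26 (Ifnar1) and 0.12 ± 0.17 (Ifnar2), and the kinase Tyk2 -0.22 ± 0.18. The largest changes were in the sensor adaptor Tmem173, which encodes STING (-0.77 ± 0.30, limma adjusted p = 0.432), and in Irf3 (-0.55 ± 0.22, adjusted p = 0.438).

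IRGs and GBPs are loaded onto pathogen vacuoles with the help of the ATG8 conjugation machinery of autophagy. Of 15 genes of that list 10 were higher and 5 lower in KO, none called, with a median of 0.12 (0.17 without WT453). Gabarapl1, an ATG8 family gene, had 42.5, 54.03 and 45.6 CPM in KO451, KO452 and KO457, against 21.5, 30.8 and 33.9 CPM in WT453, WT454 and WT455 (log2 fold change 0.89 ± 0.22, limma adjusted p = 0.344, and an FDR of 0.00607 in the authors' deposited table). Its relative Gabarapl2 had 95.2, 75.9 and 83.8 CPM in the KO spleens and 45.6, 65.9 and 73.4 CPM in the WT spleens (0.63 ± 0.24, limma adjusted p = 0.418). Every KO spleen was above every WT spleen for both genes, which were named for having the largest changes of the list. Groups did not overlap for 5 of the 15, against 19.5% of all genes. Gabarap (0.34 ± 0.18) and the ubiquitin-binding receptor Sqstm1 (0.24 ± 0.25) were the most abundant of the list.

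GBPs also help to open bacteria so that inflammasomes sense them. Of 7 inflammasome genes 2 were higher and 5 lower, none called, with a median of -0.32 (-0.09 without WT453). Gsdmd, the pore-forming gasdermin, was at 140.5 CPM in WT453 and between 25.9 and 42.9 CPM in the other 5 libraries. Il1b (-0.56 ± 0.38) and the adaptor Pycard (-0.11 ± 0.19) did not pass the test. Of 5 genes for the prenylation that anchors Gbp2 and Gbp5 in membranes, 2 were higher and 3 lower, none called. The farnesyltransferase subunits Fnta and Fntb had -0.0016 ± 0.21 and 0.69 ± 0.38, the geranylgeranyl transferase subunit Pggt1b -0.15 ± 0.21 and the protease Rce1 -0.43 ± 0.32.

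**Figure D5:**
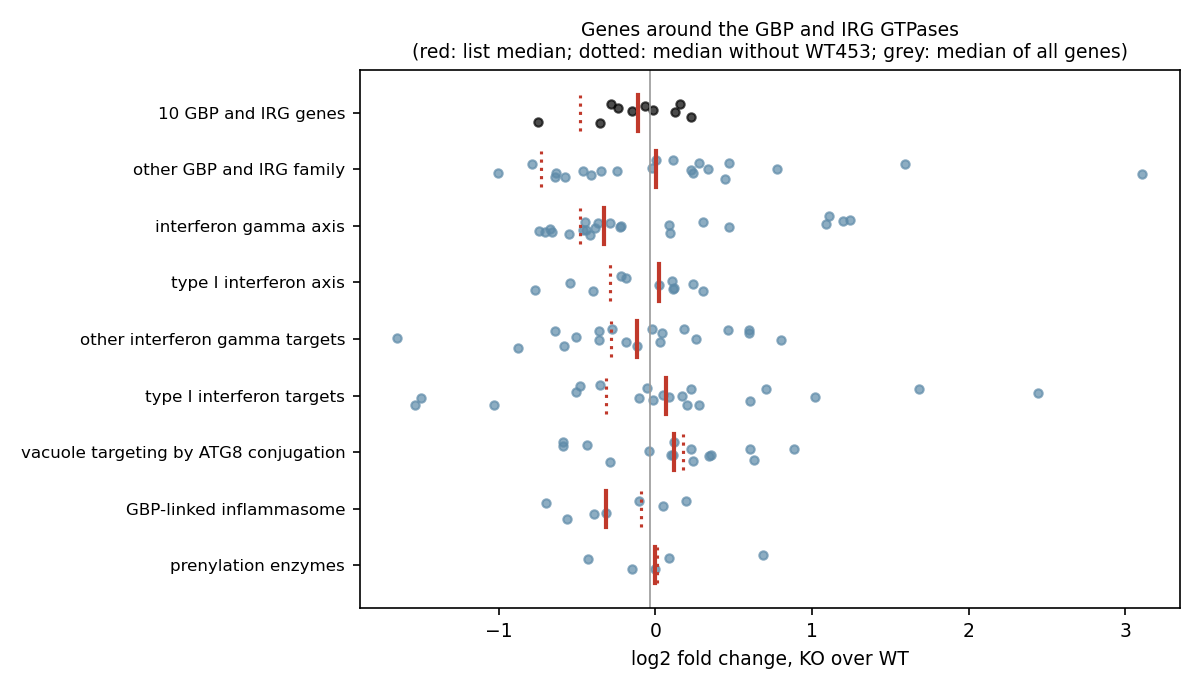
Log2 fold change, KO over WT, of each gene in the 10 GBP and IRG genes and 8 related lists (1 point per gene, spread vertically for sight), with the list median from 6 libraries (solid red), the median without WT453 (dotted red) and the median of all genes tested (grey line). The solid median of the 10 genes is at -0.11 and the dotted one at -0.48, while the genes farthest to the right are Gm4070 and Rsad2.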

How the data were processed

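Spleen RNA of 3 KO and 3 WT mice was made into mRNA libraries, per the labels' protocols. The deposited table lists 26452 genes. It holds 1 log2 value per library and the authors' own comparison, made up of a log2 fold change, the p-value and its FDR. Tools named in the submitters' processing notes, without roles, are STAR 2.5.3a, FastQC 0.11.5, DESeq and StringTie 1.3.1c, with the build GRCm38. Counting, annotation, filters and strand use were not given in the sources used here. By its values, each deposited log2 value is log2(n + 1), where n is a read count over a size factor: 100% came out as whole reads within 0.001. CPM was computed from those reads. KO columns carry a name suffix of unstated meaning, and processing of the groups apart from each other, if it marks that, and genotype cannot be told apart.

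Genotypes were compared with limma 3.58.1 (intensity trend, R 4.3.3) on the deposited log2 values. Genes with a mean normalized count below 1 (4371) were left out and 22081 tested, with Benjamini-Hochberg adjustment at 0.05. On this scale the changes of low genes are understated. Overlap of groups and library ranks were read on it too, and levels in CPM. Replicates are single animals, so p reflects their spread, and the labels give no batch. Exon lengths and positions came from GENCODE M21, found for 26404 genes, and promoter windows from RefSeq.

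The 10 genes, the 8 lists and the 11 marker lists were chosen with earlier results of these data known. Named were all 10 genes, Was and all tested family genes. Of each other list, any gene called, the 2 with the highest mean CPM and the 2 with the largest change at 1 CPM or more were named. Interferon gamma and type I ligands, receptors, Irf1 and Irf8 were named where found in the table. A gene that the rule names is not reported here. Cela1, Cpa1 and the genes of marker lists were named only as parts of sums or as being at 0. Alternatives were a pseudocount of 0.1, no filter, a filter at 1 CPM, quantile normalization, size factors without immunoglobulin, T cell receptor and haemoglobin genes, limma voom on recovered reads, array quality weights, and each library left out in turn.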

Additional observations from a re-analysis of the deposited data

How the results depend on the processing

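No member of the 10 passed the adjusted threshold under any of 13 alternatives, with a lowest adjusted p of 0.0717 (limma with array quality weights, Gbp4), and 16 of 130 recomputed log2 fold changes changed sign. Over all genes, 2 were called, against 1 with limma voom on recovered reads and 16 with array quality weights. The count was 3 with size factors without immunoglobulin, T cell receptor and haemoglobin genes, and 0 to 2 with each library left out in turn. Of the fits with a library left out, only that without WT453 kept the count at 2. The log2 fold change of Was was -3.87 to -3.53 with 1 library left out (adjusted p 0.00503 to 0.446), past the threshold only without WT453. Of the 10 genes 3 were higher in KO, against 0 with array quality weights and 0 to 6 with a library left out. Array quality weights, which gave WT453 the lowest weight, also reversed Gbp3 (-0.25), Gbp7 (-0.11), Irgm1 (-0.33), Gbp2b (-0.29), Gbp8 (-0.18), Gbp10 (-1.46), Gm4951 (-0.42), Gm12250 (-0.22), 9930111J21Rik1 (-0.70), 9930111J21Rik2 (-0.81), Gm5431 (-0.38) and Gm4070 (-0.45), and voom reversed Gbp10 (-0.026). With each library left out in turn, log2 fold changes ran over both signs for Gbp2 (-0.51 to 0.32), Gbp3 (-0.29 to 0.49), Gbp6 (-0.80 to 0.32), Gbp7 (-0.15 to 0.35), Iigp1 (-0.71 to 0.54), Irgm1 (-0.41 to 0.43), Gbp2b (-0.35 to 1.42), Gbp8 (-0.085 to 0.32), Gbp10 (-1.49 to 0.75), Gm43302 (-0.43 to 0.038), Ifi47 (-0.0097 to 0.76), Tgtp2 (-0.69 to 0.39), Gm4951 (-0.33 to 1.02), Gm12250 (-0.28 to 0.66), 9930111J21Rik1 (-0.82 to 1.19), 9930111J21Rik2 (-0.97 to 0.95), Gm5431 (-0.57 to 0.72) and Gm4070 (-0.73 to 5.04). List medians ran over -0.48 to 0.19 for the 10 genes, -0.73 to 0.34 for the other family genes, -0.48 to -0.094 for the interferon gamma axis, -0.28 to 0.070 for its other targets, -0.32 to 0.29 for type I interferon targets, -0.29 to 0.033 for the type I interferon axis (array quality weights -0.27), 0.038 to 0.29 for the ATG8 list, -0.41 to -0.094 for the inflammasome list (array quality weights -0.089) and -0.11 to 0.067 for prenylation enzymes. Beyond the libraries left out or given less weight, the cause was not tested. No paired analysis was possible because the groups share no animal numbers. Each of the 10 genes had at least 133 reads in every library.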
